A study of Mus musculus with 2 samples.

Results

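The PGC1 family and a set of nuclear receptor coregulators were examined in RNA from hearts lacking Med1 in cardiomyocytes. The group holds 9 genes taken by gene symbol from the deposited expression files, out of 22882 symbols listed there. They are the PGC1 family genes Ppargc1a (PGC1α), Ppargc1b (PGC1β) and Pprc1, the p160 coactivator genes Ncoa1, Ncoa2 and Ncoa3, the corepressor gene Ncor1 and the acetyltransferase genes Crebbp and Ep300. Hearts came from 23-day-old C57BL6/J mice of mixed gender that received no treatment. Control mice were Med1fl/fl, with loxP sites around exons 8–10 of both Med1 alleles. The csMed1-/- mice carried the same floxed alleles together with the α-MyHC-Cre transgene, which is driven by the α-myosin heavy chain promoter and so removes Med1 from cardiomyocytes while fibroblasts, vessel cells and other cells of the heart keep it. The labels do not say that the control mice carried the transgene. RNA from 5 hearts was pooled for each genotype and 1 library was made from each pool, so there are no replicates, no test between the genotypes was possible, and every ratio below describes these 2 libraries.

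PGC1 proteins do not bind DNA themselves. They dock on nuclear receptors such as PPARα and the estrogen-related receptors, or on factors such as NRF1, and bring in p160 proteins, the acetyltransferases CBP and p300, and Mediator, which contacts RNA polymerase II. In heart muscle PGC1α and PGC1β are known for driving mitochondrial biogenesis and the burning of fatty acids, whereas NCoR1 holds unliganded receptors in a silent state together with histone deacetylase 3. Med1 is the Mediator subunit that contacts ligand-bound nuclear receptors, and the comparison asks how mRNA levels change in the heart when cardiomyocytes lack it.

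The values are FPKM, fragment counts divided by transcript length and by library size, so levels can be compared between genes of different length. Genes were kept when neither library listed them at 0 and the higher value was at least 1 FPKM. Across the 10489 genes kept, the median log2 ratio of csMed1-/- to Med1fl/fl was -0.07. A difference was counted when it passed 2-fold, and 68.5% of genes lay within it, with 18.0% lower and 13.6% higher. Med1 itself was at 3.38 FPKM in Med1fl/fl heart and 0.412 FPKM in csMed1-/- heart (log2 ratio -3.04), lower in the direction the labels give. The lowest values above 0 pile up at a step which, if it is 1 read, puts the libraries at about 58900000 (Med1fl/fl) and 82100000 (csMed1-/-) mapped fragments. On that reading the lowest member level with rows summed, Ppargc1a in csMed1-/- heart, rests on about 510 fragments. Ppargc1b there rests on about 530 fragments for its 2 rows summed. The lower of these rows (0.384 FPKM) made up only 21.9% of the summed FPKM, so it rests on fewer. This depth limits only counting error and not the variation between hearts. Among 10 cardiomyocyte marker genes above the same minimum, 6 were lower and 0 higher past 2-fold (median log2 ratio -1.24), and their summed level went from 55702 to 23088 FPKM (ratio 0.414). That sum leaves out Actc1, a heart actin gene that is listed at 0 in Med1fl/fl heart and at 9189 FPKM in csMed1-/- heart. The heavy chain gene Myh6 stands only in a row merged with Myh7, which is also listed at 0 in Med1fl/fl heart, with 647 FPKM in csMed1-/- heart. A 0 for such abundant heart mRNAs can be a failed estimate. Fibroblast markers had 1 of 8 lower and 4 higher, and their summed level went from 503 to 1193 FPKM. Most of that rise was in the collagen genes Col1a1 (129 to 502 FPKM) and Col1a2 (95.7 to 314 FPKM). Single fibroblast markers had log2 ratios from -1.11 (Lum) to 4.13 (Postn), with Pdgfra at -0.02 and Dcn at -0.24. Of the other marker lists, 3 of 7 endothelial genes, 1 of 6 smooth muscle genes and 0 of 5 macrophage genes were lower past 2-fold, and 0, 2 and 1 were higher. Their summed levels went from 481 to 376, from 675 to 496 and from 164 to 130 FPKM. Acta2 (573 to 310 FPKM) made up most of the smooth muscle sum, and Lyz2 (116 to 68.0 FPKM) most of the macrophage sum. The median log2 ratios of these lists were -0.67, 0.28 and -0.19, so the smooth muscle sum and median differed in direction. In lists this short a count of 1 gene lies near the share of all genes. Single cardiomyocyte markers had log2 ratios from -3.78 (Pln) to 0.56 (Actn2). The paper lists Pln and Ryr2 among the genes lowered in csMed1-/- heart. The part of these shifts in the values below was not tested. In bulk heart RNA fewer cells of a type cannot be told apart from less RNA per cell or from changes of single marker genes.

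Of the 9 coregulator genes, 3 were lower in csMed1-/- heart by more than 2-fold (Ppargc1a, Ppargc1b and Ncoa1), against 18.0% of all genes. The members were chosen with earlier results of these data known, and the paper had reported Ppargc1a and Ppargc1b as decreased in these mice. None of the 9 was higher by more than 2-fold, against 13.6% of all genes. The other 6 lay within 2-fold. In any amount 7 were lower and 2, Pprc1 and Crebbp, were higher. Their median log2 ratio was -0.37, compared with -0.07 over all genes. With rows sharing a symbol summed, single ratios ran from -2.21 (Ppargc1a) to 0.18 (Pprc1). All 9 reached 1 FPKM in Med1fl/fl heart, and 8 of them did in csMed1-/- heart, the exception being Ppargc1a. The members nearest the threshold were Ncoa1 just past it (-1.04) and Ncoa3 just short of it (-0.95). Ncoa1 came inside 2-fold when ratios were centred on the median of all genes (-0.97), scaled to the 75th percentile (-0.99) or computed with a pseudocount of 1 (-0.77), so its call depends on these settings.

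**Figure D1:**
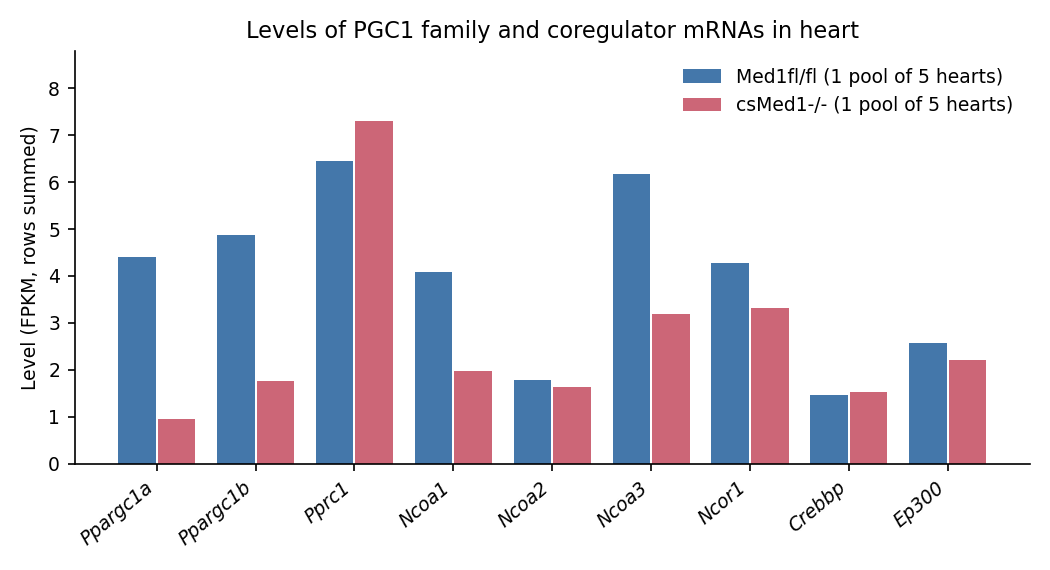
Levels of the 9 coregulator mRNAs in FPKM (vertical axis) in Med1fl/fl heart (blue) and csMed1-/- heart (red), 1 pool of 5 hearts each, without error bars because there are no replicates. Ppargc1a, Ppargc1b, Ncoa1 and Ncoa3 show the widest gaps, Pprc1 is the highest bar in both genotypes, and Crebbp, Ep300 and Ncoa2 differ little.

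Ppargc1a encodes PGC1α, the member of the family that cold, exercise and fasting induce through cAMP signalling. It was at 4.41 FPKM in Med1fl/fl heart and 0.953 FPKM in csMed1-/- heart. It was 4.63-fold lower (log2 ratio -2.21), and 429 of the 10489 genes had a lower ratio. This was the lowest ratio of the group with the 2 rows of Ppargc1b summed, while 1 of those rows alone was at -3.18. On summed rows, Ppargc1a moved from rank 4 of the 9 genes by level in Med1fl/fl heart to rank 9 in csMed1-/- heart. Its level was above that of 35% of all genes in Med1fl/fl heart and of 6.92% in csMed1-/- heart. In the GENCODE M21 annotation of GRCm38 (mm10), the gene spans chr5:51454250-51567726 on the minus strand. The genes whose pair of levels lay nearest to that of Ppargc1a were AW209491 (4.25 and 0.991 FPKM), Ndufaf4, which encodes an assembly factor of respiratory complex I (4.12 and 0.933 FPKM), and Gm5113 (4.40 and 0.883 FPKM), by distance in log2 FPKM over the 2 libraries.

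Ppargc1b encodes PGC1β, a relative of PGC1α that acts on the same receptors. The files list it on 2 rows, which summed to 4.87 FPKM in Med1fl/fl heart and 1.76 FPKM in csMed1-/- heart. The sum was 2.77-fold lower (log2 ratio -1.47), and 1062 genes had a lower ratio. The 2 rows differed widely. The first was nearly equal in the 2 libraries, at 1.38 and 1.37 FPKM (ratio 0.999). The second was at 3.49 and 0.384 FPKM, 9.08-fold lower (log2 ratio -3.18). All of the difference in the summed level therefore came from the second row, which made up 71.7% of the sum in Med1fl/fl heart and 21.9% in csMed1-/- heart.

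The place of each row in the files differs as well. Rows follow the chromosome and then the strand, and 99.4% of 20070 genes listed once stand among genes mostly of their own strand. GENCODE places Ppargc1b on the minus strand. The 10 annotated neighbours of the second row are all minus-strand genes, while the 10 neighbours of the first are all plus-strand genes of the same chromosome. The files give no coordinates for the rows, and what the first row counts was not tested. The libraries were directional, but whether strand was used in counting is not stated in the sources used here. The other 8 members stand on single rows, with 9 or 10 of 10 neighbours on their own strand. The genes nearest to the summed levels of Ppargc1b were Mkks (4.91 and 1.73 FPKM), Ehmt1 (4.75 and 1.75 FPKM) and Homer2 (4.81 and 1.71 FPKM).

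**Figure D2:**
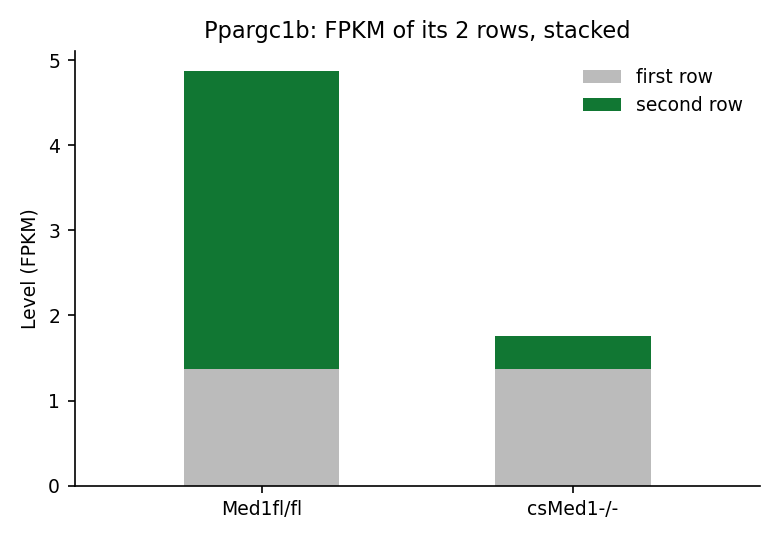
Level of Ppargc1b in FPKM (vertical axis) in the 2 pooled libraries, stacked from its first row (grey) and its second row (green). The grey part has nearly the same height in both bars, at 1.38 and 1.37 FPKM, and the green part goes from 3.49 to 0.384 FPKM.

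Pprc1 encodes PRC, a member of the family known for its induction by growth signals. It was at 6.44 FPKM in Med1fl/fl and 7.30 FPKM in csMed1-/- heart (log2 ratio 0.18), the highest level of the group in both libraries. Pprc1 was thus slightly higher, well inside 2-fold, where Ppargc1a and Ppargc1b were lower. It lies at chr19:46044886-46072915 on the plus strand and overlaps Ldb1 on the minus strand.

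Ratios between genes within a library do not depend on how the libraries were scaled. Ppargc1a stood at 0.685 of Pprc1 in Med1fl/fl heart and at 0.131 of it in csMed1-/- heart. Ppargc1b stood at 0.755 and 0.241 of Pprc1. Both were therefore lower relative to Pprc1 whatever the scaling. Ppargc1a also went from 0.907 to 0.542 of Ppargc1b with its 2 rows summed. That direction depends on the sum, since the second row alone was 9.08-fold lower and Ppargc1a 4.63-fold lower. Together the PGC1 family mRNAs summed to 15.7 FPKM in Med1fl/fl heart and to 0.637 of that in csMed1-/- heart. Pprc1 made up 41.0% of that sum in Med1fl/fl and 72.9% in csMed1-/- heart. The share of Ppargc1a went from 28.1% to 9.52%, and that of Ppargc1b from 31.0% to 17.6%. In Med1fl/fl heart the levels of the family spanned 1.46-fold, and in csMed1-/- heart they spanned 7.66-fold. Shares and spans both use the summed rows of Ppargc1b.

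With rows summed, Ppargc1a had the lowest ratio of the group, Pprc1 the highest, and Ncoa1 the lowest of the p160 genes. To show their start regions, the 250 bases before the RefSeq start (GRCm38.p6) are printed 5′ to 3′ on the strand of each gene. They are chr5:51567726-51567975 (minus strand) for Ppargc1a, chr19:46056289-46056538 (plus strand) for Pprc1 and chr12:4477183-4477432 (minus strand) for Ncoa1. The Pprc1 window lies inside the GENCODE span of that gene, since GENCODE includes a transcript that starts upstream of the RefSeq start. The Ppargc1a and Ncoa1 windows lie at the far 5′ ends of their spans. Any start sites further inside these genes were not examined. Capitals mark matches, on either strand, to the cAMP response element core TGACG, the nuclear receptor core AGGTCA and the GC box GGGCGG.
Ppargc1a: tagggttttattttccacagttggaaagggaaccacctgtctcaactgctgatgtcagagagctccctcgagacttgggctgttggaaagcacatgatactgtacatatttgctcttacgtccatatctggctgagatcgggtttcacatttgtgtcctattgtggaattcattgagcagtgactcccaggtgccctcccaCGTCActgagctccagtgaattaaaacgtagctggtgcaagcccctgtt
Pprc1: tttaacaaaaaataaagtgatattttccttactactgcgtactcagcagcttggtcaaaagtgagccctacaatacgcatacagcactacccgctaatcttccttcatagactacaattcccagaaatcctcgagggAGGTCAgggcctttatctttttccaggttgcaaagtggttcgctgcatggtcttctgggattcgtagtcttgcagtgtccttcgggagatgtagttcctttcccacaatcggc
Ncoa1: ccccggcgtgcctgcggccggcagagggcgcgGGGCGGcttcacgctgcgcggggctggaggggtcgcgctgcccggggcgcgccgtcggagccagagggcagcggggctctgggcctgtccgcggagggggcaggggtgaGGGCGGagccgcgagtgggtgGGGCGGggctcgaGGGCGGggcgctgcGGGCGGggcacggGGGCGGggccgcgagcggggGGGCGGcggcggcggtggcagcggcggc

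The Ppargc1a window holds 1 TGACG match, on the reverse strand (read as CGTCA), 49 to 45 bases before the start, and 17.8% of all 32851 RefSeq mouse promoters of this length hold at least 1. The Pprc1 window holds 1 AGGTCA match, 113 to 108 bases before the start, and 14% of promoters do. The Ncoa1 window holds 7 GGGCGG matches, and 32.7% of promoters hold at least 1. GC content was 48% for Ppargc1a, 45.2% for Pprc1 and 85.6% for Ncoa1, against a median of 52.4% over all promoters. The full cAMP response element TGACGTCA, which contains TGACG, was not in these windows (1.55% of promoters), nor was the estrogen-related receptor element TCAAGGTCA, which contains AGGTCA (0.387%), the NRF1 core GCATGCGC (2.26%), the E-box CACGTG (6.02%), the ETS element CCGGAAG (6.91%) or TATAAA (12.4%). Such matches describe letters and not bound sites. The table has entries for 6 of the 9 members, and the others are Ppargc1b, Ncoa2 and Ncoa3.

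The p160 coactivators bind the ligand-dependent surface of nuclear receptors and carry acetyltransferases and methyltransferases to them. Ncoa1 (SRC-1) was at 4.08 FPKM in Med1fl/fl and 1.98 FPKM in csMed1-/- heart, 2.06-fold lower. Ncoa3 (SRC-3) was at 6.17 and 3.18 FPKM, 1.94-fold lower (log2 ratio -0.95). Ncoa2 (SRC-2) was at 1.79 and 1.63 FPKM (log2 ratio -0.14). The p160 genes differed in their ratios, with Ncoa1 and Ncoa3 close to 2-fold lower and Ncoa2 near 1. Relative to Ncoa2 within each library, Ncoa1 went from 2.28 to 1.22 and Ncoa3 from 3.44 to 1.95. The 3 genes summed to 12.0 and 6.80 FPKM (ratio 0.564). Ncoa3 remained the most abundant of them, with 51.2% and 46.8% of the sum. In the same annotation Ncoa1 spans chr12:4247362-4477182 (minus strand), Ncoa2 chr1:13139105-13374083 (minus strand) and Ncoa3 chr2:165992636-166073242 (plus strand).

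Ncor1, whose product nucleates a histone deacetylase complex on receptors that lack an activating ligand, was at 4.28 FPKM in Med1fl/fl and 3.31 FPKM in csMed1-/- heart (log2 ratio -0.37). It moved from rank 5 of the 9 by level to rank 2. Ppargc1a went from 1.03 times Ncor1 in Med1fl/fl heart to 0.288 times Ncor1 in csMed1-/- heart. Ncoa1 went from 0.954 to 0.598 times Ncor1. In csMed1-/- heart every coactivator gene of the group except Pprc1 was therefore below Ncor1, compared with all but Pprc1, Ncoa3, Ppargc1b and Ppargc1a in Med1fl/fl heart. With 1 library each, neighbours in this order cannot be shown to differ.

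Crebbp and Ep300 encode CBP and p300, acetyltransferases of histones that p160 and PGC1 proteins recruit. Crebbp was at 1.46 FPKM in Med1fl/fl and 1.52 FPKM in csMed1-/- heart (log2 ratio 0.06). Ep300 was at 2.56 and 2.21 FPKM (log2 ratio -0.21). Their sum, 4.02 and 3.73 FPKM, gave a ratio of 0.928, nearer to 1 than that of the PGC1 family (0.637) or the p160 genes (0.564). Crebbp spans chr16:4081328-4213997 (minus strand), Ep300 chr15:81585351-81652077 (plus strand) and Ncor1 chr11:62316426-62458541 (minus strand). In GENCODE 7 of the 9 members overlap the span of a gene on the opposite strand. These are Gm42613 for Ppargc1a, Gm25301 for Ppargc1b, Ldb1 for Pprc1, 4921501I09Rik, Gm22343 and Gm23756 for Ncoa1, Gm27881 for Ncoa2, Sulf2 for Ncoa3, and Gm12276, Pigl and Ttc19 for Ncor1. Overlap was taken over whole gene spans, introns included, and whether exons are shared was not examined. Reads from a shared exon stretch cannot be told apart if strand was not used in counting. These 7 include the 3 members lower past 2-fold and also Pprc1, Ncoa2, Ncoa3 and Ncor1, which lay within it. The share of all genes with such an overlap was not computed.

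**Figure D3:**
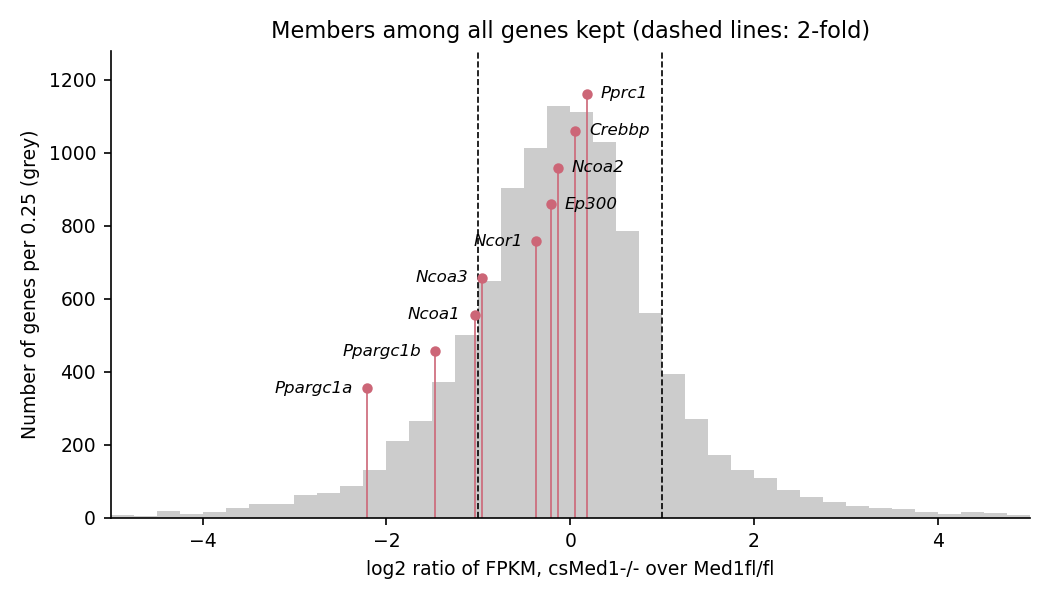
Histogram of log2 ratios of FPKM, csMed1-/- over Med1fl/fl (horizontal axis), for 10489 genes (grey, number per 0.25), with the 9 members as red markers whose heights carry no value. Dashed lines mark 2-fold, and only Ppargc1a, Ppargc1b and Ncoa1 lie left of the lower line.

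Other coactivators that work with PGC1, p160 or CBP/p300 proteins had 3 of 14 genes above the minimum lower past 2-fold, near the 18.0% of all genes, 0 higher, and a median log2 ratio of -0.34. Perm1, a muscle gene induced by PGC1 and estrogen-related receptors and listed under the older symbol 2310042D19Rik, was at 192 FPKM in Med1fl/fl and 21.7 FPKM in csMed1-/- heart (log2 ratio -3.15). Lpin1, whose product lipin 1 is a phosphatidate phosphatase that also coactivates PPARα with PGC1α, was at 43.3 and 5.04 FPKM (-3.10). Kat2a, which encodes the acetyltransferase GCN5, an enzyme that acetylates and restrains PGC1α, was at 13.6 and 6.23 FPKM (-1.12). Those 3 were the genes past the threshold. Perm1 and Lpin1 had lower ratios than any of the 9 members with rows summed, but not than the second Ppargc1b row alone (-3.18). Ncoa4, Ncoa5 and Ncoa6 had log2 ratios of -0.55, -0.16 and -0.29. The arginine methyltransferase genes Carm1 (-0.76) and Prmt1 (0.07) lay within 2-fold, as did Kat5 (-0.63), Kat2b (0.37), Calcoco1 (-0.39), Cited2 (-0.02), and the chromatin remodelling genes Smarca4 (-0.06) and Smarcd3 (0.20). Ncoa7 and Ccar1 were below 1 FPKM in both libraries.

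Corepressor genes had 0 of 9 lower and 1 higher past 2-fold, against 18.0% and 13.6% of all genes. Their median log2 ratio was -0.07, the same as that of all genes. The gene that was higher was Sin3b, which encodes a scaffold of a histone deacetylase complex, at 81.8 FPKM in Med1fl/fl and 264 FPKM in csMed1-/- heart (1.69). Hdac3, the deacetylase that the Ncor1 product binds, was at 46.7 and 44.6 FPKM (-0.07). Of the other partners of Ncor1, Tbl1x (-0.72) and Gps2 (0.17) lay within 2-fold. So did Sin3a (-0.75), Hdac1 (0.12), Hdac2 (-0.97) and Rcor1 (-0.67). Nrip1, Lcor and Tbl1xr1 were below 1 FPKM in both libraries.

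Among transcription factors that PGC1 proteins coactivate, 3 of 14 were lower past 2-fold, again near the 18.0% of all genes, and 0 were higher, with a median log2 ratio of -0.24. Ppara, encoding the fatty acid sensor PPARα, was at 12.4 FPKM in Med1fl/fl and 1.66 FPKM in csMed1-/- heart (-2.90). Rxrg, encoding one of the RXR proteins that pair with PPARs, was at 71.7 and 14.0 FPKM (-2.36). Esrra, encoding the estrogen-related receptor ERRα, was at 127 and 61.4 FPKM (-1.05). For each of these receptors other forms lay within 2-fold: Ppard (-0.28) and Pparg (-0.49), Rxra (-0.60) and Rxrb (0.01), and Esrrb (-0.21). The thyroid hormone receptor gene Thra was at 79.0 and 78.7 FPKM (-0.01). Nrf1 (0.15), Gabpb1 (-0.16), Yy1 (-0.55), Mef2a (0.72) and Mef2d (0.20) also lay within 2-fold. Esrrg, Thrb, Gabpa and Mef2c were below 1 FPKM in both libraries.

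Regulators that act on PGC1 genes or proteins had 1 of 18 genes lower and 2 higher past 2-fold, with a median log2 ratio of -0.01. Fbxw7, part of a ubiquitin ligase, was at 2.34 FPKM in Med1fl/fl and 0.658 FPKM in csMed1-/- heart (-1.83). The AMP-activated protein kinase subunit genes Prkag2, at 14.0 and 42.6 FPKM (ratio 3.04), and Prkab2, at 3.94 and 10.7 FPKM (ratio 2.71), were higher. The count lower lies below the 18.0% of all genes, and the count higher is near the 13.6% of all genes. Sirt1 and Creb1 were below 1 FPKM in both libraries.

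Genes that PGC1 proteins are known to raise in muscle had the median farthest from 0 of the 6 lists of related genes. Of 25 genes, 17 were lower and 1 higher past 2-fold, against 18.0% and 13.6% of all genes. In any amount 24 were lower, and the median log2 ratio was -1.24. The list was chosen with earlier results of these data known. The paper had reported some of its genes, Acadm and Slc2a4 among them, as decreased in these mice. The lowest ratios were those of Acadm, the medium-chain acyl-CoA dehydrogenase, at 251 and 36.4 FPKM (-2.78), of Slc2a4, the insulin-responsive glucose transporter GLUT4, at 347 and 71.5 FPKM (-2.28), and of Mfn1, a mitochondrial fusion GTPase, at 27.4 and 5.76 FPKM (-2.25). The gene that was higher was Ucp2, a mitochondrial carrier, at 302 and 723 FPKM (1.26). Cpt1b is listed only in a row merged with Chkb and was not used. The cardiomyocyte markers had the same median to 2 decimals, -1.24, and whether the 2 shifts have a common origin was not tested.

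Mediator, the complex through which these coactivators reach RNA polymerase II, had 2 of 29 genes lower and 2 higher past 2-fold. Both counts lie below the 18.0% and 13.6% of all genes, and the median log2 ratio was 0.16. Besides Med1, Med16 was lower, at 46.1 and 22.9 FPKM (-1.01), and Med15 (22.0 and 49.5 FPKM, 1.17) and Med7 (0.670 and 1.36 FPKM, 1.02) were higher. Med16 came inside 2-fold when ratios were centred on the median of all genes, and Med7 did with a pseudocount of 0.1.

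**Figure D4:**
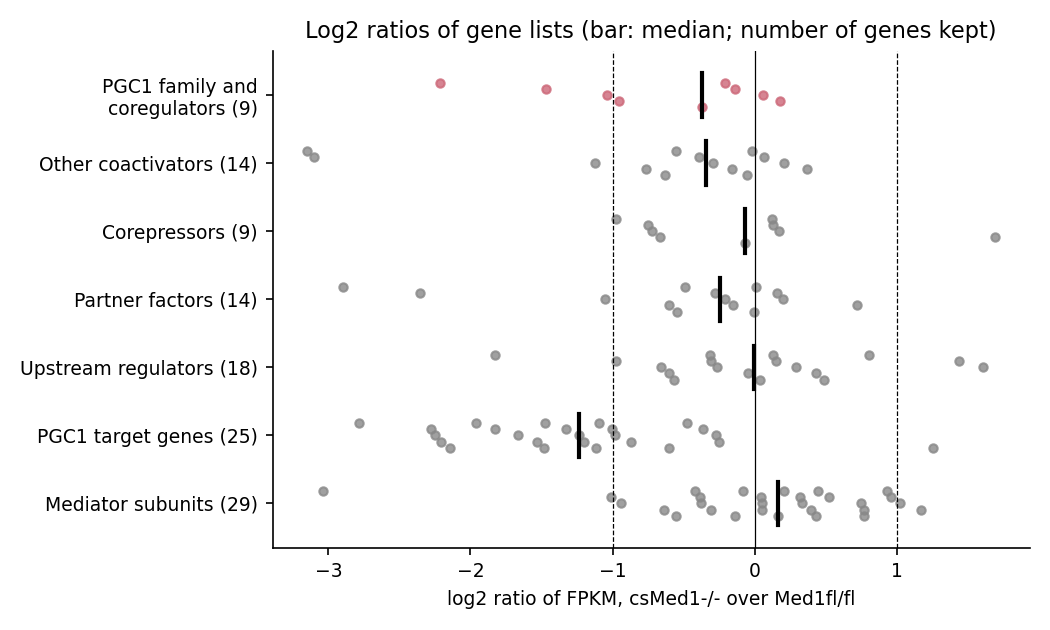
Log2 ratios of FPKM, csMed1-/- over Med1fl/fl (horizontal axis), for the 9 members (red) and 6 lists of related genes (grey), 1 point a gene, with the number of genes in parentheses. Black bars mark medians and dashed lines mark 2-fold, and the PGC1 target list has the lowest median (-1.24) while the Mediator list has the highest (0.16).

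The calls were also computed relative to cardiomyocyte markers, by setting the median ratio of those markers to 1. This moved the median log2 ratio of all genes to 1.17. Ppargc1a then had a log2 ratio of -0.97, Ppargc1b of -0.23 and Ncoa1 of 0.20, so with rows summed none of the 9 was lower past 2-fold. Pprc1 (1.42), Crebbp (1.30), Ncoa2 (1.11) and Ep300 (1.03) became higher past 2-fold. Among all 10489 genes 411 were lower and 6003 higher on this scale, compared with 1886 and 1423 as deposited. Ppargc1a and the summed Ppargc1b thus had ratios lower than that of the median cardiomyocyte marker by less than 2-fold. Both remained lower than the median gene by more than 2-fold. The second Ppargc1b row alone (-3.18 as deposited) lay below the marker median (-1.24) by more than 2-fold.

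**Figure D5:**
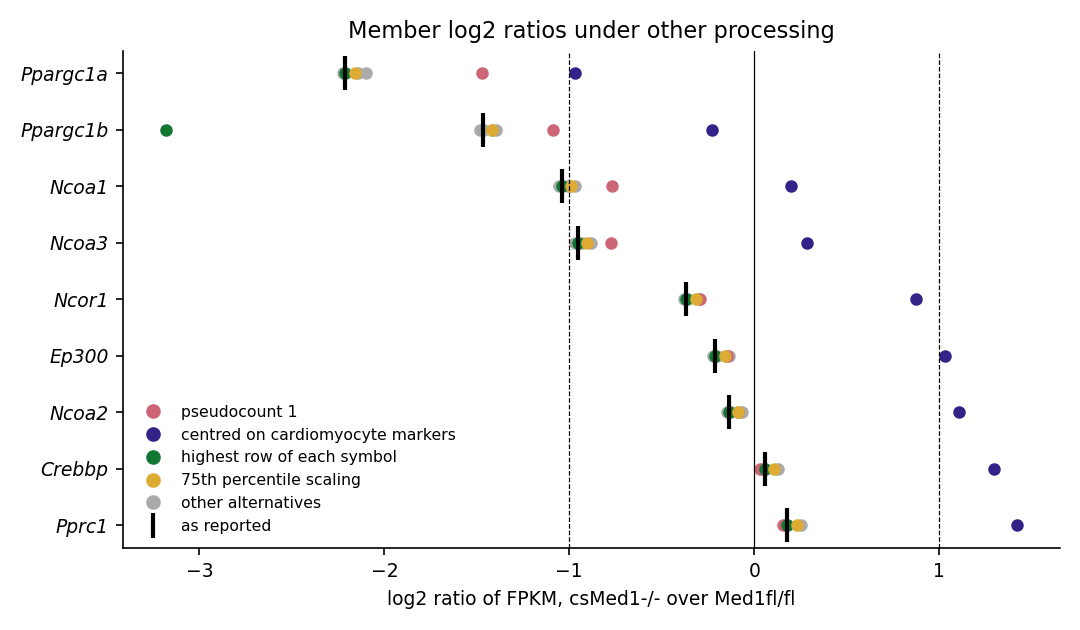
Log2 ratio of each member, csMed1-/- over Med1fl/fl (horizontal axis), as reported (black bars) and under alternative processing (colored points), with dashed lines at 2-fold. Most points lie close to the bars, whereas centring on cardiomyocyte markers (dark blue) moves every member up and taking the highest row of a symbol (green) moves Ppargc1b to -3.18.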

How the data were processed

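Heart RNA of 5 mice per genotype was pooled into 1 library each. The authors aligned 50 nt single-end directional reads to mm10 with TopHat (2.0.8b) and deposited FPKM values of annotated genes from Cufflinks and cuffdiff (2.1.1). The submitters' processing notes also list STAR 2.4.0h and DESeq2 without a role. The library scaling is not given in the sources used here, so depth had to be approximated from the lowest values and GENCODE M21 transcript lengths.

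Rows sharing a symbol (412 of 22882 symbols) were summed. Ratios of csMed1-/- to Med1fl/fl FPKM carry no pseudocount, and genes listed at 0 in neither library and reaching 1 FPKM in at least 1 of them were kept (10489). The computation was run on simulated data in which changes were set far past the threshold with small noise. This checks the arithmetic only and does not address variation between hearts or low levels. The members and lists were chosen with earlier results of these data known, and the cell type marker lists were used for description only. Named genes are the members, Med1, the coactivators, corepressors and partner factors, the 3 largest changes past 2-fold in each direction of the other lists, and the 3 genes nearest to Ppargc1a and Ppargc1b in log2 FPKM. Actc1, Myh6, Chkb, the other named cell type markers and the overlapping genes were named after their values or positions were seen. The values of 1 listed gene are not reported here.

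Alternatives were pseudocounts of 0.1 and 1, other filters (none, 1 FPKM in both, 10 FPKM in either), centring on the median of all genes or on cardiomyocyte markers, scaling to the 75th percentile or to the sum without the 100 highest genes, a 4-fold threshold, and the highest row of each symbol. Python 3.11.15, numpy 2.4.6, pandas 2.3.3 and matplotlib 3.10.9 were used.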

Additional observations from a re-analysis of the deposited data

How the results depend on the processing

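With 1 pooled library per genotype, no value has a replicate check, and no paired analysis was possible because no test was made. No member reaches 10 FPKM, so that filter gives no value for the members, and 1 FPKM in both libraries leaves out Ppargc1a. The count of members lower past the threshold stayed within 1.5 times the reported 3 in 8 of 10 alternatives, but it was not always 3. It was 2 with a pseudocount of 1, 1 FPKM in both, centring on the median of all genes and 75th percentile scaling. A 4-fold threshold gave 1, and centring on cardiomyocyte markers gave 0.

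With rows summed, centring on cardiomyocyte markers gave 0 members lower, 4 higher and a median log2 ratio of 0.87. It turned Ncoa1 to 0.20 and the median of the PGC1 targets to 0.0068, with 3 targets lower. On that scale 6 other coactivators, 5 corepressors, 7 partner factors and 10 upstream regulators were higher, 0 upstream regulators were lower, and 1 Mediator gene was lower and 20 higher. By construction this centring raises every log2 ratio by the same amount. Of the genes past 2-fold, 93.6% were higher on that scale against 43% as deposited.

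A 4-fold threshold left 1 member (Ppargc1a), 5 targets and 1 Mediator gene lower and 0 upstream regulators lower, with 0 corepressors, 0 upstream regulators, 0 targets and 0 Mediator genes higher. Filters of 1 FPKM in both and of 10 FPKM in either left 0 upstream regulators lower. They also left 1 Mediator gene lower and 1 higher. Mediator had 1 gene lower with a pseudocount of 1, with centring on the median of all genes and with 75th percentile scaling, and 1 gene higher with pseudocounts of 0.1 and 1. A pseudocount of 1 moved Ppargc1a to -1.47, and the highest row of each symbol moved Ppargc1b to -3.18.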

Other observations

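Ppargc1b is not alone in standing on rows of both strands. Of 288 symbols on 2 rows that GENCODE M21 gives a single gene, 218 have their rows among genes of opposite strands of the same chromosome. What such rows count was not tested.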
